A study of Rattus norvegicus with 6 samples.

Results

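The sestrins and the regulators of mTORC1 were followed as 10 genes: Sesn1, Sesn2, Sesn3, Ddit4, Tsc1, Tsc2, Rheb, Mtor, Rptor and Deptor. They were chosen by name, from 14217 genes measured on 6 Affymetrix rat arrays, and not by their values, though earlier results of these data were known. All 10 were found, with 16 of the 31042 probe sets that are not array controls. A probe set is a group of short probes that together give 1 value for a transcript. For a gene with several probe sets the brightest over the 6 arrays, here called the main probe set, stood for the gene, and the others are given beside it.

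The RNA came from NRK-52E, a permanent line of normal rat kidney tubule epithelium. All cells were given 10 ng/mL TGF-β1, under which epithelial cells lose epithelial and gain mesenchymal traits, for 24 h. On 3 arrays (AMPKα2 shRNA) the cells carried a lentiviral hairpin directed at AMPKα2, which is one of the alternative kinase subunits of AMP-activated protein kinase (AMPK), a sensor of energy shortage. On the other 3 arrays (control) they carried a control lentivirus. The labels number the arrays of each group as biological replicates. Whether the infected cells were a clone or a mixed population, and what sequence the hairpins have, the sources used here do not say. Cells without TGF-β1 were not analysed here, so every value below is from cells under TGF-β1. The comparison asks how transcripts differ between cells with AMPKα2 targeted and their controls.

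mTORC1 is a protein kinase complex at the lysosome that promotes protein synthesis and growth and holds back autophagy. It is switched on by the small GTPase RHEB and, when amino acids are present, by the Rag GTPases. The TSC1-TSC2 complex turns RHEB off, DDIT4 (also called REDD1) promotes that step, and the sestrins restrain the Rag branch through the GATOR complexes and also act on AMPK. AMPK in turn phosphorylates TSC2 and RPTOR, which lowers mTORC1 activity. In the kidney, loss of TSC1 or TSC2 gives cysts and benign tumours, and mTORC1 activity in tubule cells is linked to growth and fibrosis. An array reads transcripts only and does not measure the activity of these proteins.

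The 3 sestrin promoters are shown because these genes are switched on by stress through their promoters. A link between these sequences and the array values was not tested. They are RefSeq sequences of build GRCr8, from 250 bases before to 50 after a listed start site, with capitals marking matches to the motifs described next. The Sesn1 window lies inside the annotated gene (46876918 to 46970010), so the first base of the gene is not covered.
Sesn1, chr20:46948469-46948768, plus strand: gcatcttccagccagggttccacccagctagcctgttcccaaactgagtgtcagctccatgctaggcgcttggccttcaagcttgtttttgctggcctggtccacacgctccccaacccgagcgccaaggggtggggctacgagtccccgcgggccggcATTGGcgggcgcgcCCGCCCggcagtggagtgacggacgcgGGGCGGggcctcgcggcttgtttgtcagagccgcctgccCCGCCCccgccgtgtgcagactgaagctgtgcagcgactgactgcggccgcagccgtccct
Sesn2, chr5:150005206-150005505, minus strand: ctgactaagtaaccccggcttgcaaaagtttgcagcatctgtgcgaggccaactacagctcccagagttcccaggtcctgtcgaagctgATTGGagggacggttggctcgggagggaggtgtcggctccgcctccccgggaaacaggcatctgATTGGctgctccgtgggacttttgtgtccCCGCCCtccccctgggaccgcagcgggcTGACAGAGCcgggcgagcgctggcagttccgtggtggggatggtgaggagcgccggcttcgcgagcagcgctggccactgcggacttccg
Sesn3, chr8:19415177-19415476, plus strand: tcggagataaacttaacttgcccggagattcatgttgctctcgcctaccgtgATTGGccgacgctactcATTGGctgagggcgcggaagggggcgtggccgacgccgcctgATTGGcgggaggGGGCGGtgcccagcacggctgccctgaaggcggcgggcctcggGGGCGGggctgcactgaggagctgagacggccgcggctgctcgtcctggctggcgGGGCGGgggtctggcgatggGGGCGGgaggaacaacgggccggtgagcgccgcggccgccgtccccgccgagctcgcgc

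Of the 10 genes, 8 had a promoter in the RefSeq table, and Rptor and Deptor were without an entry. The Tsc1 and Rheb windows, like that of Sesn1, lie inside the annotated gene and do not cover its first base. Each promoter was searched on both strands for the E-box (CACGTG), the hypoxia response core (ACGTG, which lies within the E-box and was counted there too), a FOXO site (GTAAACA), the antioxidant response element (TGACNNNGC), the amino acid response element (TGATGNAA), the glucocorticoid response element, the CCAAT box (CCAAT) and the GC box (GGGCGG). The Sesn3 promoter held 3 CCAAT boxes, which start 198, 181 and 139 bases before the start site, and 4 GC boxes. The Sesn2 promoter held 2 CCAAT boxes, 1 GC box and 1 antioxidant response element, and the Sesn1 promoter 1 CCAAT box and 3 GC boxes. Over the 8 promoters, 5 held a CCAAT box, against 37.7% of 27457 rat promoters of this length, and 7 held a GC box, against 34.9%. The 8 promoters had GC contents of 55 to 72.7%, and the median of all promoters was 52.3%. The E-box was in 1 of the 8 (Rheb) and in 6.65% of all. The hypoxia core was in 3 (Ddit4, Tsc2 and Rheb) and in 19.7% of all. A FOXO site was in 1 (Tsc1, after the start site) and in 3.76% of all, and the antioxidant element in 2 (Sesn2 and Rheb) and in 12.2% of all. The amino acid element, found in 3.82% of all promoters, and the glucocorticoid element, found in 0.422%, were in none of these 8 windows. A match is a run of letters and not a measured site.

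The arrays of both groups had means from 6.16 to 6.19 on the deposited log2 scale, but the values of the AMPKα2 shRNA arrays covered a narrower range (SD over probe sets 1.76 to 1.82) than those of the control arrays (2.17 to 2.19). In a fit over all genes (limma, Benjamini-Hochberg adjusted p under 0.05), 85.1% of genes passed, 43.6% higher and 41.5% lower with the AMPKα2 hairpin. Direction followed level. Genes with control levels of 4 to 5 had a median change of 0.79, and genes at 9 to 10 had -0.90. Each of the 10 genes is therefore also set against the 500 genes nearest to it in control level. Each is read again after quantile normalization of the arrays (the quantile values), cyclic loess (the loess values) and subtraction of each array median (the centred values). For most named pathway genes the median of genes of like level is given, and the other scalings are given in part. The median change over all genes, 0.05 with the deposited values, became 0.16 in the quantile, 0.09 in the loess and -0.17 in the centred values. Prkaa2, which encodes the targeted AMPKα2, read 6.64, 6.76 and 6.49 with the AMPKα2 hairpin against 6.83, 6.79 and 6.89 with the control, a difference of -0.21 (SE 0.09) that did not pass (limma, adjusted p = 0.0552). It was -0.05 in the quantile and -0.15 in the loess values, neither of which passed, and -0.42 in the centred values, which did (limma, adjusted p = 0.00145). Whether its only probe set called Prkaa2 lower thus depended on the scaling, and the groups are named as labelled. Prkaa1, the gene of the alternative kinase subunit AMPKα1, had changes of -2.34, -1.03 and 0.55 on its 3 probe sets, all of which passed. Their control levels were 8.63, 7.41 and 3.87. Of 8 markers of tubule epithelium, Krt8 stood high, at 12.49 on the control arrays, while Cdh1 (4.31), Krt18 (3.53), Cldn2 (3.22) and Epcam (2.97) stood low. Of these 8 markers, 6 rose, 1 fell (Krt8) and 1 did not pass. Of 18 markers of endothelium, podocytes, leukocytes and fibroblasts or mesangial cells, with control levels of 2.83 to 8.32, 15 rose, 1 fell and 2 did not pass. Among all genes with control levels of 4 to 5, 89.9% rose, and of those at 5 to 6, 80.8% did. The mean over these 18 log2 values ranged from 4.88 to 4.96 in the control group and from 5.55 to 5.72 with the hairpin. Their part in the results below was not tested.

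Of the 10 genes, 6 were lower with the AMPKα2 hairpin, 2 were higher and 2 did not pass, where 85.1% of all genes passed in either direction. Groups did not overlap in 8 of the 10, against 87.1% of all genes, so neither share stood above the background. The sizes varied more than the counts. Sesn3 and Deptor fell to well under the control level, by 2.26 and 1.83 on the log2 scale, Tsc2 fell by 0.86, and the other 7 changes lay between -0.59 and 0.67. With the 3 other scalings in view as well, Sesn3, Deptor and Tsc2 were lower and Tsc1 was higher in each of the 4, in the fit over all genes. Among all genes 26.4% were lower and 25.5% higher in each of the 4. Taken singly, the quantile values gave 5 of the 10 genes higher and 3 lower, where 43.8% and 28.9% of all genes were. The loess values gave 4 higher and 3 lower, against 40.2% and 31.5%, and the centred values 2 higher and 7 lower, against 35% and 48.2%. Of the 6 genes with a second probe set, Tsc1 and Deptor passed in 1 direction on both, Sesn1 and Sesn3 passed in opposite directions, and Sesn2 and Rheb did not pass on either. Of all probe sets 81.9% passed, 47.8% higher and 34.1% lower.

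**Figure D1:**
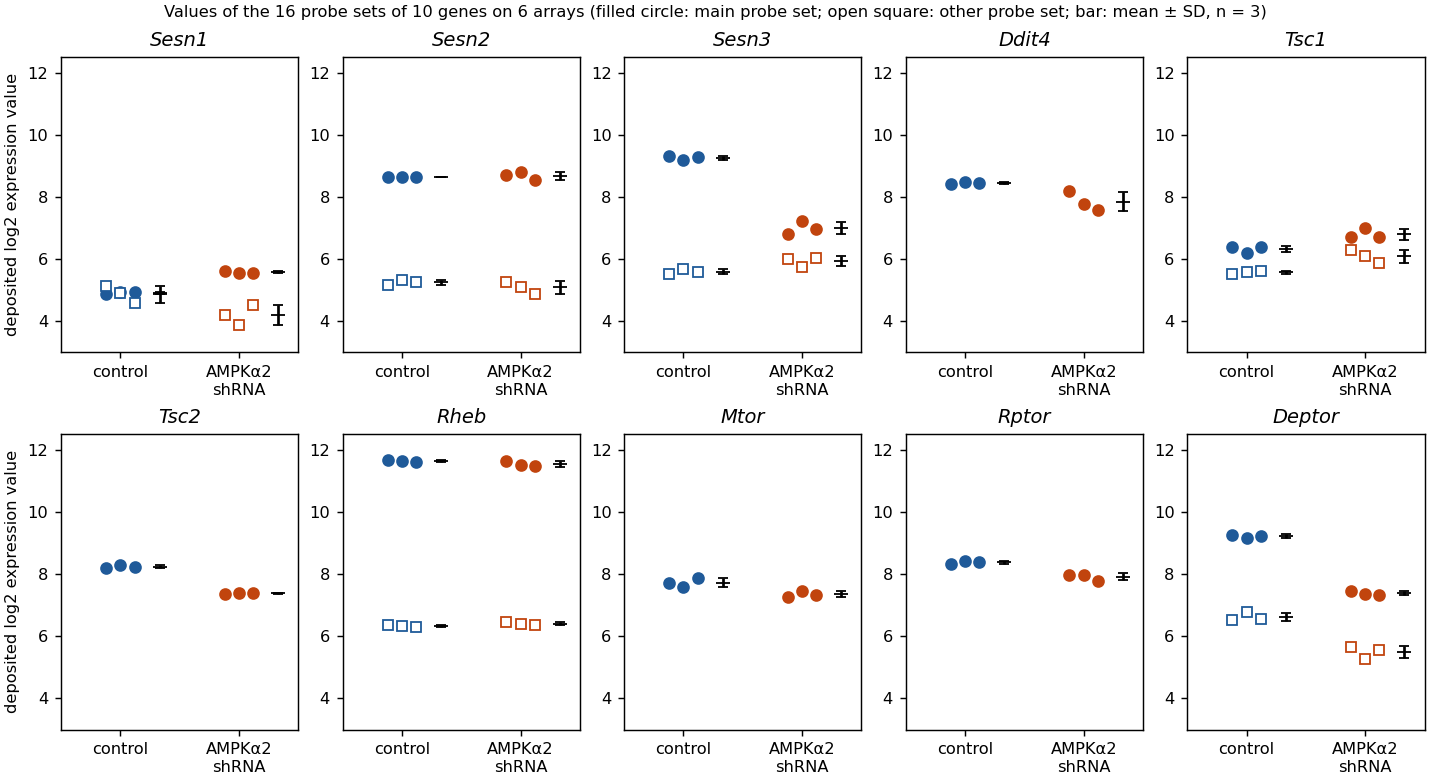
Deposited log2 values (vertical axis) of all 16 probe sets of the 10 genes on the 3 control arrays (blue) and the 3 AMPKα2 shRNA arrays (orange). Filled circles are the main probe set, open squares the other probe set, and bars the mean ± SD (n = 3). The main probe set of Sesn3 drops from a mean of 9.26 to 7.01 and that of Deptor from 9.21 to 7.38, while the open squares of Sesn3 lie at 5.60 and 5.93.

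Sestrin 3 had the largest change of the 10. The main probe set of Sesn3 (1393620_at) read 6.82, 7.22 and 6.98 with the AMPKα2 hairpin, against control values of 9.31, 9.19 and 9.29. The nearest arrays of the groups lay 1.97 apart. Its log2 fold change was -2.26 (SE 0.11, 95% interval -2.49 to -2.02), a 4.78-fold lower value (limma, adjusted p = 2.03e-08). The change was -1.69 in the quantile values, -1.62 in the loess values and -2.47 in the centred values, and it passed in each. Relative to the median of all genes in the same scaling, it was -2.30 as deposited, -1.85 in the quantile values and -1.71 in the loess values. Among the 500 genes nearest in control level the median was -0.88, and 6.2% of them had a lower change than Sesn3.

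The other probe set of Sesn3 (1390910_at) did not share that fall. It read 6.01, 5.74 and 6.04 with the AMPKα2 hairpin, against control values of 5.52, 5.69 and 5.58. Its rise of 0.34 (SE 0.10) passed as deposited (limma, adjusted p = 0.0113), while 0.06 in the quantile values, -0.13 in the loess values and 0.12 in the centred values did not pass. Its control level was 5.60. Genes at control levels of 5 to 6 had a median change of 0.81, higher than that of this probe set, and 80.8% of them rose. The probe sets differed in their change by -2.59 (SE 0.17) in a limma fit on the within-array difference between probe sets of a gene (adjusted p = 4.47e-07). Such a difference passed in 68% of 6609 pairs of probe sets, so it is common on these arrays. The mean of the Sesn3 probe sets fell by 0.96 on the log2 scale. The value of Sesn3 thus rests on its brighter probe set.

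Sestrin 1, a p53-induced and FOXO-induced member of the family, had no direction that its probe sets shared. Its main probe set (1395809_at) read 5.62, 5.56 and 5.57 with the AMPKα2 hairpin and 4.89, 4.93 and 4.93 with the control. It rose by 0.67 (SE 0.08, limma, adjusted p = 1.19e-05), by 0.26 in the quantile values and by 0.45 in the centred values, and its change of 0.07 in the loess values did not pass. Genes of its control level had a median of 0.82, higher than that of Sesn1, and 34% of them lay below it. The other probe set (1372248_at) read 4.21, 3.89 and 4.54 against 5.13, 4.91 and 4.58 in the control, with the groups only 0.04 apart at their nearest arrays. Its fall of 0.66 (SE 0.17, limma, adjusted p = 0.0043) was 1.09 in the quantile values and 1.20 in the loess values. The 2 probe sets differed by 1.32 (SE 0.19, limma, adjusted p = 0.000101), and their mean changed by 0.00 (limma, adjusted p = 0.97). Both stood under 6 in every array, in the range where most genes rose.

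Sestrin 2, which binds leucine and is induced by amino acid shortage and oxidative stress, did not pass with the deposited values. Sesn2 (main probe set 1391607_at) read 8.70, 8.81 and 8.54 with the AMPKα2 hairpin and 8.65, 8.64 and 8.64 with the control, so the control values lay within the range of the others. The change of 0.04 had a 95% interval of -0.16 to 0.24 (limma, adjusted p = 0.707). Genes of like control level had a median of -0.80, and 88.6% of them had a lower change than Sesn2. In the quantile values the change was 0.77 and in the loess values 0.75, which passed, while -0.18 in the centred values did not pass and turned the sign. The other probe set (1396901_at) read 5.28, 5.11 and 4.88 against 5.17, 5.33 and 5.27, a change of -0.17 that did not pass (limma, adjusted p = 0.178). Its changes of -0.58 in the quantile values, -0.77 in the loess values and -0.39 in the centred values did pass. A direction for Sesn2 was thus not settled by these arrays.

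DDIT4 is the stress-induced protein that restrains mTORC1 through the TSC complex. Ddit4 (1368025_at) read 8.18, 7.78 and 7.59 with the AMPKα2 hairpin, against control values of 8.41, 8.48 and 8.44. The AMPKα2 shRNA values had the widest spread of the 10 main probe sets (SD 0.30, against 0.04 in the control), yet each lay under each control value. The fall of 0.59 (SE 0.13, limma, adjusted p = 0.00153) was near the median of genes of its level, -0.65, and 53.4% of those lay below it. In the quantile values the change was 0.07 and in the loess values 0.05, neither of which passed. The change of -0.81 in the centred values passed. Without AMPKα2 shRNA replicate 1 the log2 fold change was -0.75 and without replicate 3 it was -0.46, and both passed.

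**Figure D2:**
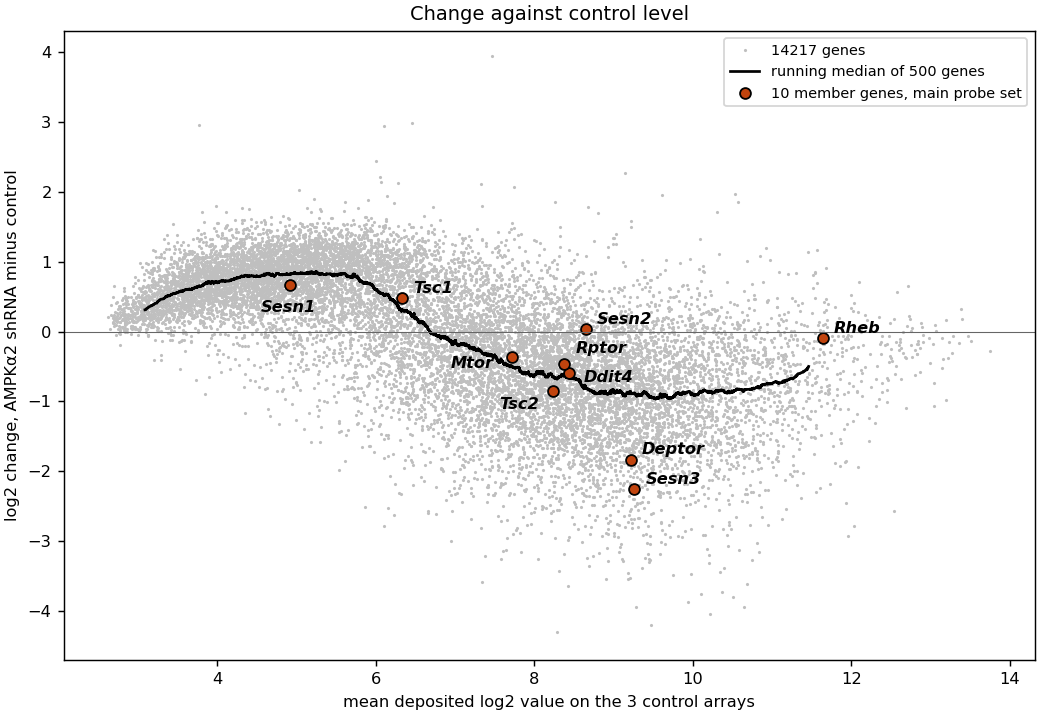
Log2 change, AMPKα2 shRNA minus control (vertical axis), against the mean control level (horizontal axis) for 14217 genes (grey), with the running median of 500 genes (black line) and the 10 named genes (orange, main probe set). Sesn3 and Deptor lie well under the line, at -2.26 and -1.83 where genes of their level had medians of -0.88, and Sesn2 and Rheb lie above it.

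Tsc1 and Tsc2 passed in opposite directions, though both lay between the quartiles of genes of their level. TSC1 is the scaffold that stabilises the complex, and both of its probe sets rose. The main one (1389776_at) read 6.70, 7.01 and 6.70 with the AMPKα2 hairpin and 6.38, 6.21 and 6.40 with the control, a rise of 0.47 (SE 0.11, limma, adjusted p = 0.00156). It rose by 0.58 in the quantile values, 0.43 in the loess values and 0.26 in the centred values. The rise of 0.26 passed narrowly over all genes (limma, adjusted p = 0.0431) and did not pass over all probe sets (limma, adjusted p = 0.0511). The other (1369362_at) read 6.30, 6.11 and 5.88 against 5.53, 5.60 and 5.62, a rise of 0.51 (SE 0.11) as deposited and of 0.30 in the centred values. Its changes of 0.27 in the quantile values and 0.08 in the loess values did not pass. A difference between the changes of these probe sets was not shown (-0.04, 95% interval -0.38 to 0.29). Genes at the control level of Tsc1 had a median of 0.30, and 56.8% lay below it.

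TSC2 is the subunit with the GTPase-activating activity towards RHEB and a direct substrate of AMPK. Tsc2 (1368056_at, its only probe set) read 7.36, 7.38 and 7.40 with the AMPKα2 hairpin and 8.20, 8.29 and 8.22 with the control. Each group was tight and the gap between them was 0.80. The fall of 0.86 (SE 0.08, limma, adjusted p = 1.93e-06) was a 1.81-fold lower value. It became smaller, 0.27 in the quantile values and 0.30 in the loess values, and was 1.07 in the centred values, and it passed in each. Genes of its level had a median of -0.65 and 37.2% of them lay below it.

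RHEB is the GTPase that activates mTORC1 directly, and its transcript did not pass on either probe set with the deposited values. Rheb (1398787_at) read 11.65, 11.50 and 11.47 against 11.66, 11.65 and 11.61 in the control, and the ranges overlapped. The change of -0.10 (95% interval -0.28 to 0.09) did not pass (limma, adjusted p = 0.291). It was 0.19 in the quantile values and 0.37 in the loess values, and -0.31 in the centred values, each of which passed, so the scaling set its sign. The rise of 0.19 did not pass in the fit over all probe sets (limma, adjusted p = 0.0516). The other probe set (1375360_at) changed by 0.08, which did not pass (limma, adjusted p = 0.383). Of the genes nearest in level, which here spanned control levels from 10.78 to 12.49, 79.8% had a lower change than Rheb.

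MTOR is the kinase of the complex and RPTOR the subunit that brings substrates to it. Mtor (1368019_at) read 7.27, 7.47 and 7.33 with the AMPKα2 hairpin and 7.70, 7.58 and 7.86 with the control. The nearest arrays of the groups were 0.11 apart. Its fall of 0.36 (SE 0.10, limma, adjusted p = 0.0054) turned to 0.15 in the quantile values and 0.10 in the loess values, neither of which passed. The change of Mtor in the centred values, -0.58, passed. Rptor (1388646_at) read 7.98, 7.98 and 7.79 against 8.32, 8.42 and 8.40, and all 3 values with the hairpin lay under all 3 controls. Its fall of 0.46 (SE 0.09, limma, adjusted p = 0.00049) turned to rises of 0.20 in the quantile values and 0.18 in the loess values that passed. The rise of 0.18 did not pass in the fit over all probe sets (limma, adjusted p = 0.0539). The change of Rptor in the centred values, -0.68, passed. Mtor and Rptor lay near the genes of their level, whose medians were -0.51 and -0.64, and 56.6% and 58.8% of those had a lower change. Neither stood outside the quartiles of the genes of its level.

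DEPTOR binds MTOR and inhibits both of its complexes. The main probe set of Deptor (1374758_at) read 7.45, 7.36 and 7.34 with the AMPKα2 hairpin, against control values of 9.26, 9.15 and 9.24. The groups were 1.70 apart at their nearest arrays, with SDs of 0.06 in each. The fall of 1.83 (SE 0.08, 95% interval -2.01 to -1.65) was a 3.56-fold lower value (limma, adjusted p = 1.35e-08). Its other probe set (1393615_at) also fell, from 6.52, 6.77 and 6.56 in the control to 5.64, 5.26 and 5.55, by 1.13 (SE 0.12, limma, adjusted p = 5.4e-06). The main probe set fell further than the other as deposited, by 0.70 (SE 0.14, limma, adjusted p = 0.00115). In the quantile values the falls were 1.18 and 1.29, in the loess values 1.16 and 1.46, and in the centred values 2.05 and 1.34, all of which passed. Among genes of like level the median was -0.88, and 12.8% had a lower change than Deptor. Deptor was the only one of the 6 genes with 2 probe sets in which both passed in the same direction under all 4 scalings.

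**Figure D3:**
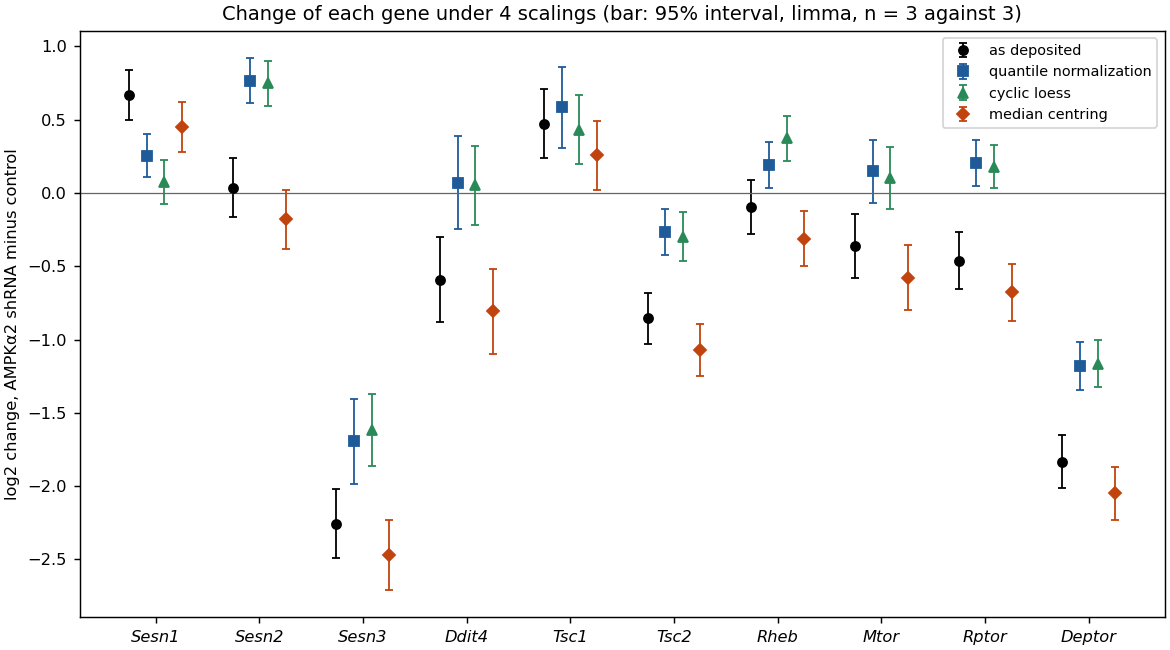
Log2 change, AMPKα2 shRNA minus control (vertical axis), of the main probe set of each of the 10 genes (horizontal axis) as deposited and in 3 further scalings; bars are 95% intervals from limma (n = 3 against 3). Sesn3, Tsc2 and Deptor lie under 0 and Tsc1 above 0 in all 4 scalings, while Ddit4, Rheb, Mtor and Rptor lie under 0 as deposited and in the centred values and above 0 in the quantile values and cyclic loess.

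Set against genes of like control level, 4 of the 10 stood outside the quartiles. By construction about as many genes lie outside the quartiles of their neighbours as within, so that count is not above the background. Sesn3 lay 1.37 and Deptor 0.96 under the median of their 500 nearest genes. Sesn2 lay 0.84 and Rheb 0.58 above theirs. With the 500 genes nearest in mean level over all 6 arrays instead, the differences were -1.59 for Sesn3, -1.14 for Deptor, 0.79 for Sesn2 and 0.27 for Rheb. That of Tsc1 was 0.33 in place of 0.18. Sesn1, Ddit4, Tsc1, Tsc2, Mtor and Rptor lay between the quartiles of their neighbours, from -0.21 (Tsc2) to 0.18 (Rptor and Tsc1) of the median. These are positions among genes, which are not replicates, and carry no test.

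The genes with the most similar profile were sought over the 6 arrays, as the smallest Euclidean distance between log2 values after subtracting each control mean. For Sesn3 they were Cdk1 (distance 0.14), Iws1 (0.14) and Ppp2r5d (0.15), with changes of -2.27, -2.23 and -2.27. For Sesn1 they were Fgl2, Ccn2 and Drc12, at distances of 0.05 to 0.07. For Sesn2 they were Trappc2b, Rnmt and Plch1, with changes of 0.04 to 0.05 that did not pass. With 2 groups of 3, such a likeness mostly reflects an equal change between the groups.

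The wider mTORC1 pathway was read through 9 lists of 102 genes, of which 91 were measured. As deposited, 22 of them rose and 48 fell, 21 did not pass, and the median change was -0.24, against 43.6% higher and 41.5% lower among all genes, whose median was 0.05. These counts were not matched for level. The same 43.6% and 41.5% are the background for the counts of each list below. Of all genes at control levels of 4 to 5, 89.9% rose, and of those at 9 to 10, 82.6% fell. In the quantile values 39 pathway genes rose and 30 fell, where 43.8% and 28.9% of all genes did. In the loess values 37 rose and 32 fell, against 40.2% and 31.5%. The centred values gave 14 higher and 59 lower, against 35% and 48.2%. In each of the 4 scalings 11 were higher and 26 lower, where 25.5% and 26.4% of all genes were.

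**Figure D4:**
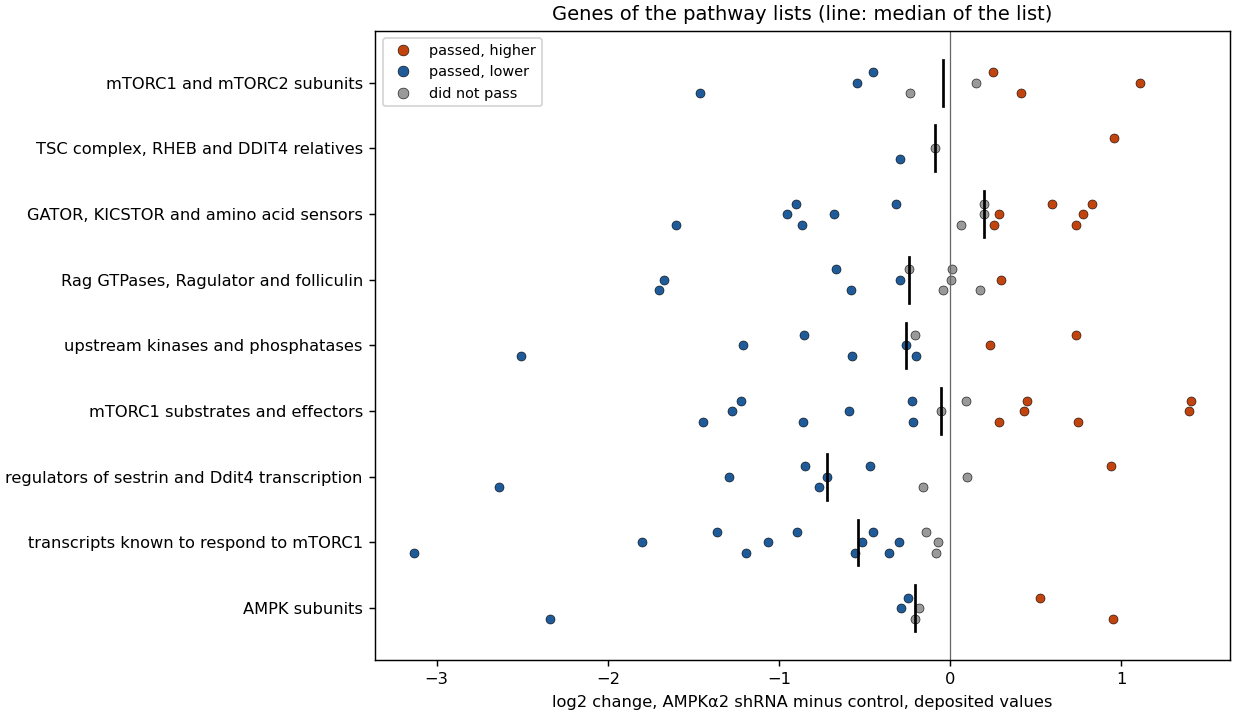
Log2 change, AMPKα2 shRNA minus control (horizontal axis, deposited values), of each measured gene of the 9 lists (rows). Orange genes passed as higher, blue as lower, grey did not pass, and the black line is the median of the list. No gene among the transcripts known to respond to mTORC1 lies above 0, and the lists of mTOR complex subunits and of GATOR and sensor genes lie on both sides of 0.

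Other subunits and helpers of the 2 mTOR complexes had 3 of 8 higher, 3 lower and 2 not passed (median -0.04). That was near the background, with 43.6% of all genes higher and 41.5% lower. Mapkap1, which encodes the mTORC2 subunit SIN1, fell by 1.46 (SE 0.10), and Prr5l, an mTORC2-associated gene, fell by 0.54. Prr5, its paralog, rose by 1.11 (SE 0.09). These 3 passed in each of the 4 scalings. Mlst8, a subunit shared by both complexes, rose by 0.42, and its change of 0.20 in the centred values did not pass. Genes of like level had medians of -0.89 (Mapkap1), 0.23 (Prr5l), 0.83 (Prr5) and -0.18 (Mlst8). Among relatives of the TSC branch, Ddit4l (REDD2) rose by 0.96, where genes of its level had a median of 0.82. Rhebl1, a paralog of Rheb, fell by 0.29, where that median was 0.35. Both genes passed in 1 direction in each of the 4 scalings. Tbc1d7, the third subunit of the TSC complex, did not pass as deposited at -0.09. Tbc1d7 passed as higher in the quantile (0.38) and loess values (0.32) and as lower in the centred values (-0.30).

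The amino acid branch, on which the sestrins act, is given beside the shares over all genes. Of 15 measured genes of the GATOR complexes, KICSTOR and the amino acid sensors, 6 rose, 6 fell and 3 did not pass (median 0.20). That split was near the background, where 43.6% of all genes rose and 41.5% fell. Nprl3, a subunit of the inhibitory GATOR1 complex, rose by 0.78 (SE 0.08), from 7.01 to 7.78, and Seh1l, a subunit of GATOR2 and of the nuclear pore, fell by 1.60 (SE 0.09), from 10.09 to 8.48. Lars1, which encodes the leucyl-tRNA synthetase, fell by 0.95, near the median of -0.90 of genes of its level, and by 0.21 in the quantile values. Itfg2, a KICSTOR gene, rose by 0.83, near the median of 0.77 of genes of its level, while its other probe set fell by 0.69. The main probe sets of these 4 kept their direction in each of the 4 scalings. Genes at the levels of Nprl3 and Seh1l had medians of -0.13 and -0.88. Among 11 genes of the Rag GTPases, the Ragulator scaffold and folliculin, 1 rose, 5 fell and 5 did not pass (median -0.24). The Ragulator gene Lamtor3 fell by 1.67 (SE 0.08), from 10.11 to 8.43, while Lamtor5 rose by 0.30, which was 0.08 in the centred values and did not pass there. Fnip2, which encodes a partner of folliculin, fell by 1.70 (SE 0.13). Its other probe sets had changes of 1.11 (control level 4.74), which passed, and 0.03 (control level 5.39), which did not. Genes of like level had medians of -0.86 (Lamtor3), -0.85 (Lamtor5) and -0.62 (Fnip2).

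Upstream of the TSC complex, 2 of 9 measured genes rose, 6 fell and 1 did not pass (median -0.26). As background, 43.6% of all genes rose and 41.5% fell. Akt1, a kinase that phosphorylates and inhibits TSC2, fell by 2.51 (SE 0.08), from 10.86 to 8.35. Its other probe sets had changes of -2.79 (control level 9.61) and 0.69 (control level 5.87). Pdpk1, the kinase that activates AKT, fell by 1.21 (SE 0.09), and by 0.46 in the quantile values. Genes at the levels of Akt1 and Pdpk1 had medians of -0.81 and -0.95. Irs1, an insulin receptor substrate, rose by 0.73, where genes of its level had a median of 0.81. Its changes of 0.27 in the quantile values and 0.16 in the loess values did not pass. Stk11, which encodes the AMPK kinase LKB1, rose by 0.23 as deposited, where genes of its level had a median of 0.82. It fell by 0.27 in the loess values, and its other probe sets rose by 0.72 and 0.62 as deposited. The AMPK subunit list had 2 of 7 higher, 3 lower and 2 not passed (median -0.21). Prkab2 rose by 0.95 and Prkag3 by 0.52, where genes of their level had medians of 0.81 and 0.82. The changes of Prkag3, 0.20 in the quantile values and 0.01 in the loess values, did not pass. Prkag1 fell by 0.29, where genes of its level had a median of -0.95. It rose by 0.47 in the quantile values and 0.42 in the loess values.

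Downstream, 6 of 15 substrates and effectors rose, 7 fell and 2 did not pass (median -0.05). These shares were near the 43.6% and 41.5% of all genes. Ulk1, an autophagy kinase that mTORC1 inhibits and AMPK activates, rose by 1.41 (SE 0.09), from 6.06 to 7.47, and its other probe set rose by 1.12. Maf1, a repressor of RNA polymerase III, rose by 1.40 (SE 0.09), from 7.83 to 9.22, where genes of its level had a median of -0.57. Larp1, which binds mRNAs of the translation machinery, fell by 1.44 (SE 0.09), and its other 3 probe sets fell by 1.40 to 1.66. Eif4ebp2, a translation repressor that mTORC1 phosphorylates, fell by 1.27 (SE 0.11). The main probe sets of these 4 genes passed in 1 direction in each of the 4 scalings. Genes of like level had medians of 0.54 (Ulk1), -0.87 (Larp1) and -0.61 (Eif4ebp2).

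Of 14 transcripts known to respond to mTORC1, 11 fell, 0 rose and 3 did not pass (limma as deposited, median -0.54). Psat1, of serine synthesis, fell by 3.13 (SE 0.08), from 10.58 to 7.45, and Asns, asparagine synthetase, fell by 1.80 (SE 0.09). The 14 genes had control levels of 6.18 to 12.99. Of all genes at levels of 8 to 9, 9 to 10 and 10 to 12, 76.4%, 82.6% and 77.7% fell. At levels of 6 to 7 (Pfkp, Slc7a11), 7 to 8 (Hk2) and above 12 (Ldha), 31.1%, 58.4% and 60.7% fell. A fall was thus common at most of these levels, and the count was not matched for level. Of the genes nearest in level, 1.6% had a lower change than Psat1 and 13.4% a lower change than Asns. Slc7a11 (-0.07), Pfkp (-0.14) and Sqstm1 (-0.08) did not pass as deposited. Slc7a11 passed in none of the 4 scalings. Pfkp passed as lower in the 3 others (-0.28 quantile, -0.44 loess, -0.35 centred). Sqstm1 passed as higher in the quantile (0.47) and loess values (0.51) and as lower in the centred values (-0.30). In the quantile values 8 fell and 4 rose, in the loess values 8 fell and 3 rose, and 7 were lower in each of the 4 scalings. Over all genes 28.9% fell and 43.8% rose in the quantile values, and 31.5% and 40.2% in the loess values. In each of the 4 scalings 26.4% of all genes were lower. Of 9 measured regulators of sestrin and Ddit4 transcription, 1 rose, 6 fell and 2 did not pass (median -0.72). Over all genes 43.6% rose and 41.5% fell, and these counts were not matched for level. Nr3c1, the glucocorticoid receptor gene, fell by 2.63 (SE 0.10), from 9.19 to 6.56, and by 0.64 on its other probe set. Hif1a fell by 1.29 (SE 0.08), while the FOXO gene Foxo4 rose by 0.94 (SE 0.12). These 3 kept their direction in each of the 4 scalings. Genes of like level had medians of -0.87 (Nr3c1), -0.80 (Hif1a) and 0.14 (Foxo4). Atf4, a driver of Sesn2 and Ddit4 transcription, had a change of 0.10 that did not pass as deposited (limma, adjusted p = 0.326). It was higher by 0.45 in the quantile and by 0.59 in the loess values, which passed, and its change of -0.12 in the centred values did not pass. Atf4, Tbc1d7, Slc7a11, Pfkp and Sqstm1 were named after their values were seen.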

How the data were processed

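Log2 expression values of 6 arrays were deposited by the authors, 1 per probe set and array. Background correction, summarisation and normalization are not given in the sources used here. Per the labels' protocols, biotinylated cRNA was made with a one-cycle Affymetrix kit. After 57 array controls were left out, 31042 probe sets remained, of which 20826 had 1 gene symbol in the platform annotation, 436 several and 9780 none. Each of 14217 genes was read by its brightest probe set. Groups were compared with limma 3.58.1 (R 4.3.3, lmFit and eBayes, 2-sided, no covariate, no level filter), with Benjamini-Hochberg adjustment over all genes, or over all probe sets or pairs of probe sets where those are given, and a threshold of 0.05. Only the limma fit was tested on simulated data, in which few genes changed and the groups did not differ in range. The scalings, the comparison by level and the motif search were not part of that test. The genes, lists, motifs and alternatives were chosen with earlier results of these data known, and the test between probe sets was added after their values were seen. Named are all 10 genes, Prkaa1 and Prkaa2, up to 2 rises and 2 falls with the largest change from each list, and the 3 genes most like each sestrin. Signal over background was not given, and the number of arrays limits the precision. If replicates were not separate cultures, p-values measure technical spread only. An exact permutation test of 3 against 3 cannot give p under 0.1.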

Additional observations from a re-analysis of the deposited data

How the results depend on the processing

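Scaling moved the counts most. Of the 10 genes, 5 were higher and 3 lower after quantile normalization, and 4 higher and 3 lower after cyclic loess, against 2 and 6 as deposited. Without the 25% of genes with the lowest mean level 1 was higher, because Sesn1 was left out, and with the mean over probe sets 1 was higher. Pathway genes numbered 39 higher and 30 lower after quantile normalization, 37 higher after cyclic loess and 14 higher after median centring, against 22 and 48. Signs turned after quantile normalization for Ddit4 (0.0705), Rheb (0.19), Mtor (0.15) and Rptor (0.20), and after cyclic loess for the same genes (0.0516, 0.37, 0.10 and 0.18). The sign of Sesn2 turned after median centring (-0.18), with the mean over probe sets (-0.0661) and without AMPKα2 shRNA replicate 2 (-0.0260), with 0.11 as the highest value when an array was left out. The cause was not tested. An intensity trend, a threshold of 0.01 and leaving out each array kept 2 higher and 6 lower. With the replicate number as a block, 2 were higher and 6 lower and 12039 of 14217 genes passed, against 12095. Same-numbered arrays did not deviate together (correlations -0.01, 0.01 and -0.07). With 3 arrays per group, these correlations cannot show whether same-numbered arrays were cultured or processed together.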
